A study of Arabidopsis thaliana with 8 samples.

Results

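Accessible chromatin regions (ACRs) at genes of the Calvin cycle and of chlorophyll synthesis were followed by ATAC-seq between the dry seed and the green seedling of Arabidopsis thaliana, accession Col-0. ATAC-seq uses the Tn5 transposase, which inserts sequencing adapters into DNA that nucleosomes leave uncovered. A member ACR has its summit, the point of highest signal, between 1000 bp upstream of the start and 500 bp downstream of the end of 1 of 39 nuclear genes. This rule uses position only, and it found 71 of the 30223 ACRs, with 41 at Calvin cycle genes and 30 at chlorophyll synthesis genes. At least 1 ACR was found at 21 of 22 Calvin cycle genes and at 15 of 17 chlorophyll synthesis genes. PGK1, CRD1 and DVR had none. An ACR between RBCS1B and RBCS2B lies in the windows of both genes and was counted as 1.

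The 8 libraries were 2 each from dry seeds (DS), germinating seeds after 6 h of light (L6) and 26 h of light (L26), and seedlings after 57 h of light (L57). All were wild-type Col-0, and the light stages were reached after cold stratification in dark water, in shaken liquid medium under continuous light. The labels describe embryos pressed out of germinating seeds and freed of seed coats on sucrose, while the handling of dry seeds and of seedlings is not described. Differences of tissue and of chromatin cannot be told apart in comparisons with either of these. In such bulk nuclei, a larger share of nuclei with a region open and more insertions per nucleus cannot be told apart either. No label states that libraries of a stage are independent cultures, and the p-values therefore cover the spread of these libraries only, which could be technical.

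The Calvin cycle is the set of chloroplast reactions that fixes carbon dioxide. Rubisco joins carbon dioxide to ribulose bisphosphate, glyceraldehyde 3-phosphate dehydrogenase (GAPDH) reduces the product, and aldolase, phosphatases, transketolase, isomerases and phosphoribulokinase rebuild the acceptor. Chlorophyll is made in the same organelle out of glutamate, by way of 5-aminolevulinate and protoporphyrin, into which magnesium chelatase puts the metal ion, and a light-requiring step is carried out by the protochlorophyllide oxidoreductases (POR). The seedling builds both pathways as its cotyledons turn green, and promoters of such nuclear genes are known for light-response elements such as the G-box and the I-box.

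The 200 bases upstream of 5 members are shown because ACRs cover these windows in full and because they carry the elements that recur below. Capitals mark the matches to the G-box CACGTG, the I-box GATAAG, the site II element TGGGCC and the telo-box AAACCCTAA on either strand, and each line runs 5′ to 3′ along the gene's strand to the base before the annotated start (RefSeq, TAIR10.1). RBCS2B (chr5:15382072-15382271, minus strand) holds a G-box among I-boxes, PRK (chr1:11531999-11532198, plus strand) a G-box, and HCEF1 (chr3:20016637-20016836, plus strand) a G-box, an I-box and a site II element. CAO (chr1:16851272-16851471, minus strand) holds a pair of G-boxes close to the start, and CHLG (chr3:19219129-19219328, minus strand) holds site II elements, some overlapping, and a telo-box.
RBCS2B: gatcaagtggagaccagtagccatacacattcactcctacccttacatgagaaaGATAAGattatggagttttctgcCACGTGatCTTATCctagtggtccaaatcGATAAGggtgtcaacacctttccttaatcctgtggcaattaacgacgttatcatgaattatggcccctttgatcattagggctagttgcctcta
PRK: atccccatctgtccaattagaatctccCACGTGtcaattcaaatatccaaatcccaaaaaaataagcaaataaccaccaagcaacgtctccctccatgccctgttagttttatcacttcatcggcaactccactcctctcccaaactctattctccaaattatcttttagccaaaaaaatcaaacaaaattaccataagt
HCEF1: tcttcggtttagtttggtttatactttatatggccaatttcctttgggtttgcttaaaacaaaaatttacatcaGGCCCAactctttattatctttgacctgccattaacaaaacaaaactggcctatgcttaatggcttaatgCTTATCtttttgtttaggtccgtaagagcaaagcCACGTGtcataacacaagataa
CAO: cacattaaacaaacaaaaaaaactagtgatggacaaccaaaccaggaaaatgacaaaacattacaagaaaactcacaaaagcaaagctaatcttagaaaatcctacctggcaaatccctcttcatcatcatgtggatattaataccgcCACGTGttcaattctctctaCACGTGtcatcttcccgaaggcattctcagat
CHLG: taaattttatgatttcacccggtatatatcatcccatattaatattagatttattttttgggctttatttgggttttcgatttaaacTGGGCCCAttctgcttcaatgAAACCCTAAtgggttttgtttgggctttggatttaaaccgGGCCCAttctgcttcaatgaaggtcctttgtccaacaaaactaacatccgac

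In RBCS2B the I-boxes begin at bases -146, -115 and -94 from the start and the G-box at -123. The G-box of PRK begins at -173, that of HCEF1 at -22 and those of CAO at -52 and -32. Among the 200-base upstream windows of all 27443 protein-coding genes, 5.64% held a G-box, 9.97% an I-box, 12.6% a site II element and 2.17% a telo-box. A G-box was found upstream of 3 of 22 Calvin cycle genes and 2 of 17 chlorophyll synthesis genes, and an I-box upstream of 4 and 1 of them. A site II element was found upstream of 3 and 2 of these genes, and a telo-box upstream of 0 and 1. Around the ACR summits, within 150 bp, the I-box was found in 15 of 41 Calvin cycle ACRs (36.6%) and 10 of 30 chlorophyll synthesis ACRs (33.3%), against 16.7% of all ACRs. The G-box was found in 26.8% and 20% of them, against 12.2% of all ACRs, and site II in 26.8% and 26.7%, against 20.1%. The telo-box was found in 1 Calvin cycle ACR (2.4%) and 2 chlorophyll synthesis ACRs (6.7%), against 2.6% of all ACRs. The evening element AAAATATCT, known from clock-controlled genes, was found at 1 member ACR, that of PORB. This is 3.3% of the chlorophyll synthesis ACRs, against 1.4% of all ACRs. In the 200-base windows it lay upstream of 2 of 17 chlorophyll synthesis genes (PORA and PORB), 0 of 22 Calvin cycle genes and 1.92% of all genes. These matches describe the sequence and were not tested.

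Total counts over ACRs ran between 3697787 and 3734831 in DS, 3142490 and 3302541 in L6, 2089834 and 2531844 in L26, and 1534759 and 1853894 in L57, so L57 was measured with the least precision. Levels are in CPM, the depth-scaled counts of the authors, corrected for differences between libraries that depend on abundance. Libraries of a stage had a Pearson correlation of log2 CPM across ACRs of 0.914 (L57) to 0.96 (DS). The median mean level was 37.7 CPM for the Calvin cycle ACRs and 33.3 CPM for those of chlorophyll synthesis, against 23.3 CPM over all ACRs. The weakest members had 11.7 and 6.91 CPM. ACRs with more counts are measured with more precision, and the shares of calls over all ACRs given below were not matched for level. As a check on what was sampled, 13 ACRs of 7 embryo storage genes summed to 531.1 and 532.7 CPM in L57 and 1105 and 1072 CPM in DS, and 9 were called lower and 1, at the oleosin gene OLEO2, higher, beside 12.2% lower and 17.0% higher over all ACRs. The 18 ACRs of seed coat markers (9 of 11 genes, none at BAN and MYB61) summed to 461.2 and 478.1 CPM in DS. They summed to 538.6 and 520.7 CPM in L6, 580.9 and 598.8 CPM in L26, and 520.6 and 496.5 CPM in L57. Of these 18, 5 were called higher and 2 lower in L6 versus DS, beside 17.6% and 14.3% over all ACRs. In L26 versus L6, 5 were called higher and 0 lower, beside 8.71% and 7.91%. In L57 versus DS, 2 were called higher and 1 lower. Of 7 endosperm markers, 3 had an ACR and AGL62, PHE1, FWA and ZOU had none. The part of these markers in the results below was not tested.

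The comparison of L57 with DS asked how these genes differed between the seedling and the dry seed. Of the Calvin cycle ACRs, 56.1% were more open in the seedling, and chlorophyll synthesis ACRs were mixed. In the quasi-likelihood test of edgeR, with Benjamini-Hochberg adjustment over all ACRs and a threshold of 0.05, 23 of 41 Calvin cycle ACRs were called higher and 0 lower, with a higher call at 16 of the 21 genes. Over all ACRs, 17.0% were called higher and 12.2% lower. Of the chlorophyll synthesis ACRs, 8 of 30 (26.7%) were called higher and 2 lower, at 7 and 2 of the 15 genes. Counts by gene were not made over all genes, and a gene with more ACRs has more chances of a call. The median log2 fold change was 0.67 for the Calvin cycle, 0.16 for chlorophyll synthesis and -0.01 over all ACRs. For the Calvin cycle count of 0 lower, 1 ACR was lower at an unadjusted p under 0.05 in edgeR and 0 were called by DESeq2, while TMM factors and GC-corrected offsets each called 2 and the fit without DS replicate 2 called 1. The chlorophyll synthesis count of 8 was 5 without L57 replicate 2, and the 2 lower calls were 0 without L57 replicate 1 or L57 replicate 2 and 1 without DS replicate 1.

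**Figure D1:**
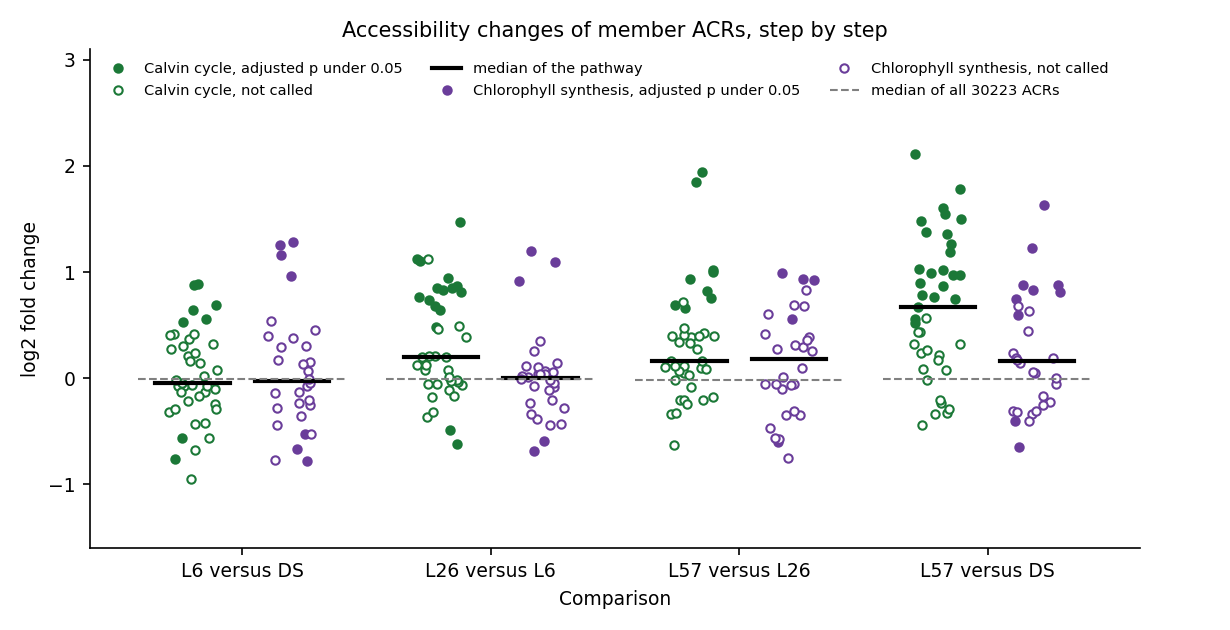
Log2 fold changes (y axis) of the 41 Calvin cycle ACRs and 30 chlorophyll synthesis ACRs in 4 comparisons (x axis), with filled points for an adjusted p under 0.05 in edgeR. Bars are the medians of each pathway and dashed lines those of all ACRs, and the largest gap between them is that of the Calvin cycle in L57 versus DS (0.67 against -0.01).

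Split by step, the Calvin cycle had its highest number of higher calls in L26. In L6 versus DS, 6 Calvin cycle ACRs were called higher and 2 lower (median -0.05), and 4 chlorophyll synthesis ACRs higher and 3 lower (median -0.03), beside 17.6% higher and 14.3% lower over all ACRs. In L26 versus L6, 14 Calvin cycle ACRs (34.1%) were called higher and 2 lower (median 0.20), against 3 and 2 chlorophyll synthesis ACRs (median 0.00), with 8.71% higher and 7.91% lower over all ACRs. In L57 versus L26, 9 Calvin cycle ACRs (22.0%) were called higher and 0 lower (median 0.16), and 4 chlorophyll synthesis ACRs higher and 1 lower (median 0.18), beside 7.53% and 6.19% over all ACRs. For that count of 0, 1 ACR was lower at an unadjusted p under 0.05 in edgeR, 0 were called by DESeq2 and 1 each with TMM factors and total counts. Over all ACRs, 52.4% of the calls in L26 versus L6 and 54.9% of those in L57 versus L26 were higher, against 38.6% and 41.5% by DESeq2. Comparisons with a stage in common are not independent, as they use its libraries in both.

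Single libraries decided some of these counts. The 14 fell to 9 without L6 replicate 2 or without L26 replicate 2, and the 9 to 5 without L57 replicate 2. For chlorophyll synthesis, the 4 higher calls of L57 versus L26 fell to 2 without L57 replicate 1 or L57 replicate 2, and the 1 lower call was 0 without either of these and 2 without L26 replicate 1. The 3 lower calls of L6 versus DS were 0 without L6 replicate 2 and 5 without L57 replicate 1 or L57 replicate 2. The lower calls of L26 versus L6, 2 in each pathway, dropped to 1 or 0 without any library other than L57 replicate 1 in the Calvin cycle and without any library in chlorophyll synthesis.

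A test over all 4 stages called 31 of 41 Calvin cycle ACRs (75.6%) and 16 of 30 chlorophyll synthesis ACRs (53.3%), against 56.6% of all ACRs. The highest mean level was in L57 for 25 Calvin cycle ACRs (61.0%) and 11 chlorophyll synthesis ACRs (36.7%), against 25.5% of all ACRs. Summed over the 41 ACRs, the Calvin cycle had 1582 and 1610 CPM in DS, 1680 and 1673 CPM in L6, 1940 and 1962 CPM in L26, and 2349 and 2294 CPM in L57. The 30 chlorophyll synthesis ACRs summed to 1096 and 1030 CPM in DS, 1101 and 1060 CPM in L6, 1095 and 1140 CPM in L26, and 1185 and 1246 CPM in L57. The Calvin cycle sums of successive stages did not overlap, whereas the chlorophyll synthesis sums overlapped among DS, L6 and L26. Of the 23 Calvin cycle ACRs higher in L57 than in DS, 5 were also called higher at the L6 step, 10 at the L26 step and 7 at the L57 step, and 4 at no single step. The same split was not made over all ACRs, so these counts have no share to be read against. The L6 and L57 steps also share libraries with L57 versus DS, so calls in both are partly built in.

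**Figure D2:**
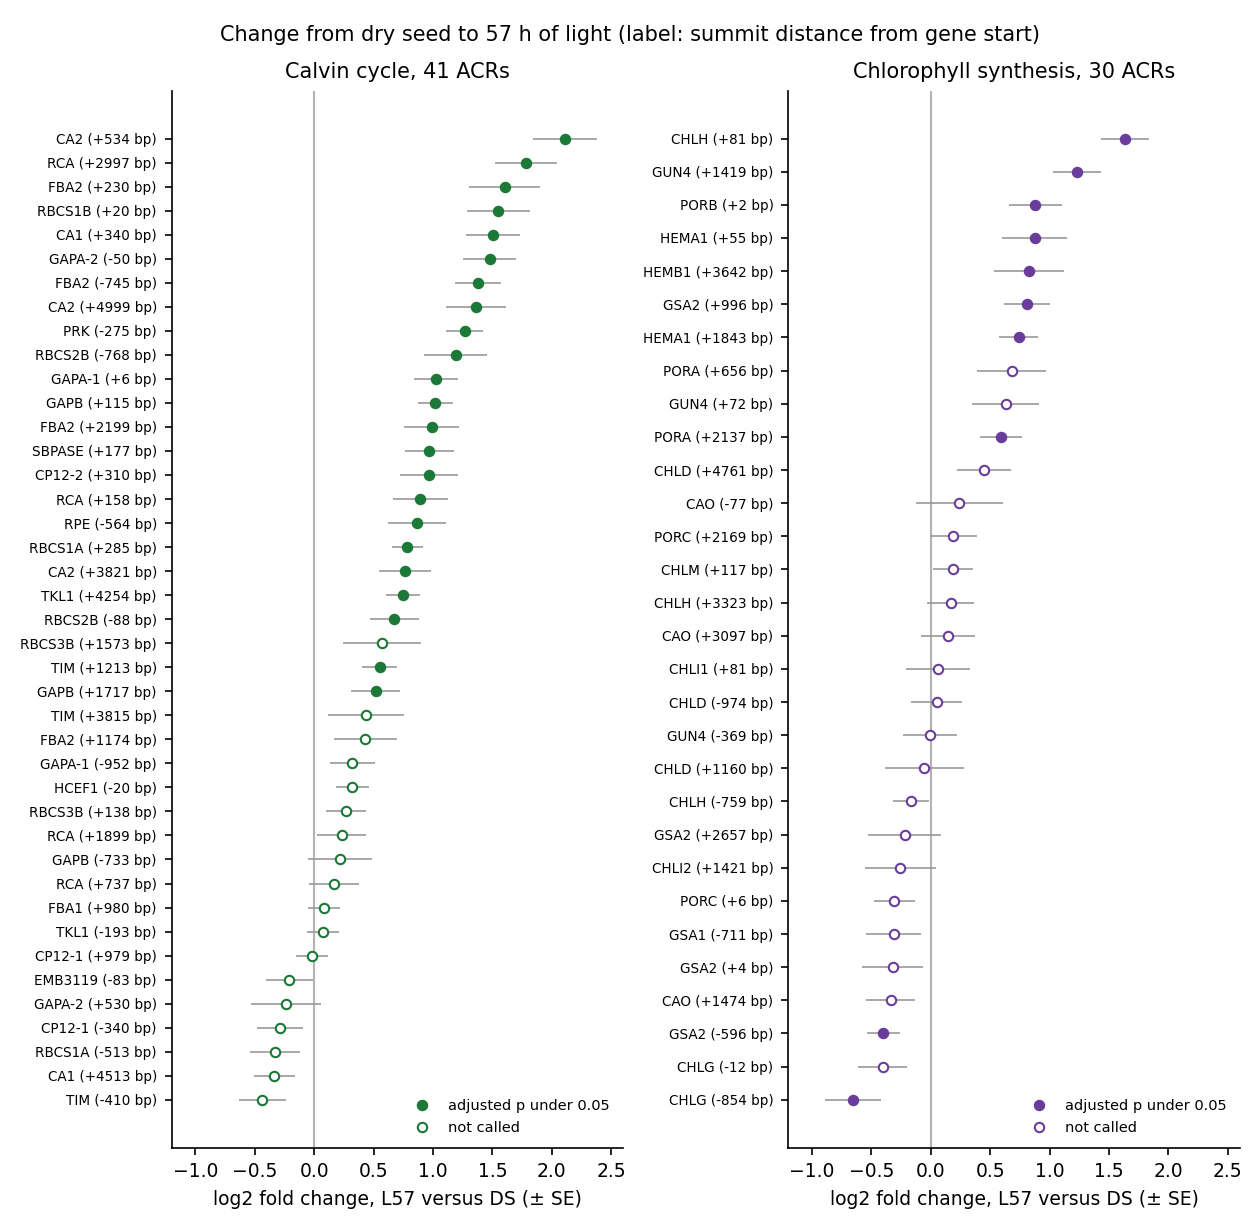
Log2 fold change of L57 versus DS with its SE (x axis) for every member ACR, sorted within each pathway, with the summit's distance from the gene start in each label (y axis). Filled points passed an adjusted p under 0.05 in edgeR, and they run to 2.11 at CA2 in the Calvin cycle panel and to 1.63 at CHLH in the chlorophyll synthesis panel.

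Rubisco is the enzyme that fixes carbon dioxide, and its small subunit is encoded by the nuclear RBCS genes. The strongest Calvin cycle ACR lay in the 5′ UTR of RBCS1A (AT1G67090, chr 1, 25049120 to 25049704), with 80.8 and 82.4 CPM in DS, 125 and 110.0 CPM in L6, 122 and 134 CPM in L26 and 144 and 138 CPM in L57. The dry seed libraries were the lowest. The ACR was higher in L6 than in DS by 0.53 ± 0.12 and in L57 than in DS by 0.78 ± 0.13 (log2 fold change ± SE, edgeR adjusted p = 0.000104 and 1.84e-07), and the second of these was not called by DESeq2 (0.38). A weaker ACR of RBCS1A lay further upstream (chr 1, 25049845 to 25050302), with 42.9 and 44.7 CPM in DS, 54.9 and 58.1 CPM in L6, 43.6 and 37.2 CPM in L26 and 40.4 and 30.2 CPM in L57. It was highest in L6 and fell in L26 by 0.49 ± 0.18, and this fall was not called in 12 of 15 alternative fits (all between -0.60 and -0.36).

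The other small subunit genes stand in tandem on chromosome 5. Their time courses are given side by side, as differences between ACRs were not tested. At RBCS2B (AT5G38420, chr 5, 15381863 to 15382394), the ACR over the printed G-box and I-boxes had 31.7 and 28.8 CPM in DS, 58.9 and 52.8 CPM in L6, 46.0 and 43.8 CPM in L26 and 48.8 and 47.8 CPM in L57. It rose in L6 by 0.88 ± 0.18 (edgeR adjusted p = 1.51e-05), the largest rise at that step among the Calvin cycle ACRs. Its change of 0.67 ± 0.21 between L57 and DS was not called without DS replicate 2 (0.61) or without L57 replicate 2 (0.70).

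At RBCS1B (AT5G38430, chr 5, 15385022 to 15385620, 5′ UTR), levels were 12.4 and 12.0 CPM in DS, 14.4 and 17.8 CPM in L6, 16.7 and 18.3 CPM in L26 and 47.1 and 25.6 CPM in L57. The seedling libraries were the highest but lay far from each other. The ACR was higher in L57 than in L26 by 1.02 ± 0.27 and than in DS by 1.55 ± 0.27, and the first of these was not called without L57 replicate 1 (0.52). The ACR between RBCS1B and RBCS2B (chr 5, 15382599 to 15383034) averaged 13.6 CPM (SD 0.347) in DS, 17.02 CPM (SD 2.6) in L6, 30.9 CPM (SD 6.67) in L26 and 30.9 CPM (SD 4.1) in L57 (n = 2 each). It was higher in L57 than in DS by 1.19 ± 0.27, and its L26 step of 0.83 ± 0.25 was not called without L6 replicate 1 (0.69) or without L26 replicate 1 (0.61).

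RBCS3B (AT5G38410, chr 5, 15377917 to 15378765, 5′ UTR) had 54.9 and 63.7 CPM in DS, 91.5 and 83.1 CPM in L6, 64.6 and 50.1 CPM in L26 and 84.1 and 60.6 CPM in L57. Its mean was highest in L6, with a rise over DS of 0.56 ± 0.14, and it then fell in L26 by 0.62 ± 0.15 (edgeR adjusted p = 0.000726 and 0.00136). L57 differed from DS by 0.27 ± 0.17, which was not called. The rise was not called without DS replicate 1 (0.42), nor the fall without L26 replicate 2 (-0.42). A second ACR of RBCS3B, in its 3′ UTR (chr 5, 15376955 to 15377207), rose in L26 by 0.94 ± 0.32, which was not called by DESeq2 (1.07), without L6 replicate 1 (0.94), without L6 replicate 2 (0.95) or without L26 replicate 2 (0.79). Parts of these genes are near-identical copies, and stretches of 50 bases with another exact copy in the nuclear genome made up 1.88% of the RBCS3B ACR and 1.27% of that of RBCS1B.

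RCA encodes Rubisco activase, which frees Rubisco of inhibitory sugar phosphates. Its strongest ACR, in an intron (AT2G39730, chr 2, 16572300 to 16573111), had 36.7 and 35.3 CPM in DS, 31.0 and 34.8 CPM in L6, 27.2 and 35.6 CPM in L26 and 30.8 and 48.6 CPM in L57, and was called in no comparison. An ACR beyond the end of the gene (chr 2, 16570587 to 16571081), under the 3′ UTR of the neighbour AT2G39725, had 9.54 and 11.9 CPM in DS, 6.58 and 6.75 CPM in L6, 19.2 and 18.0 CPM in L26 and 38.2 and 36.1 CPM in L57. It was higher in L26 than in L6 by 1.47 ± 0.35, in L57 than in L26 by 1.00 ± 0.26 and in L57 than in DS by 1.79 ± 0.26. At the start of RCA (chr 2, 16573225 to 16573845, 5′ UTR), levels were 38.8 and 40.0 CPM in L57 and 24.9 and 17.6 CPM in DS, a rise of 0.89 ± 0.23 (edgeR adjusted p = 0.00127) that was not called without DS replicate 2 (0.65). This ACR and one in a coding exon of RCA rose in L57 over L26 by 0.82 ± 0.25 and 0.66 ± 0.23. The first of these was not called in 4 of 15 alternative fits (all between 0.68 and 0.94) and the second not in 7 of 15 alternative fits (all between 0.48 and 0.82).

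**Figure D3:**
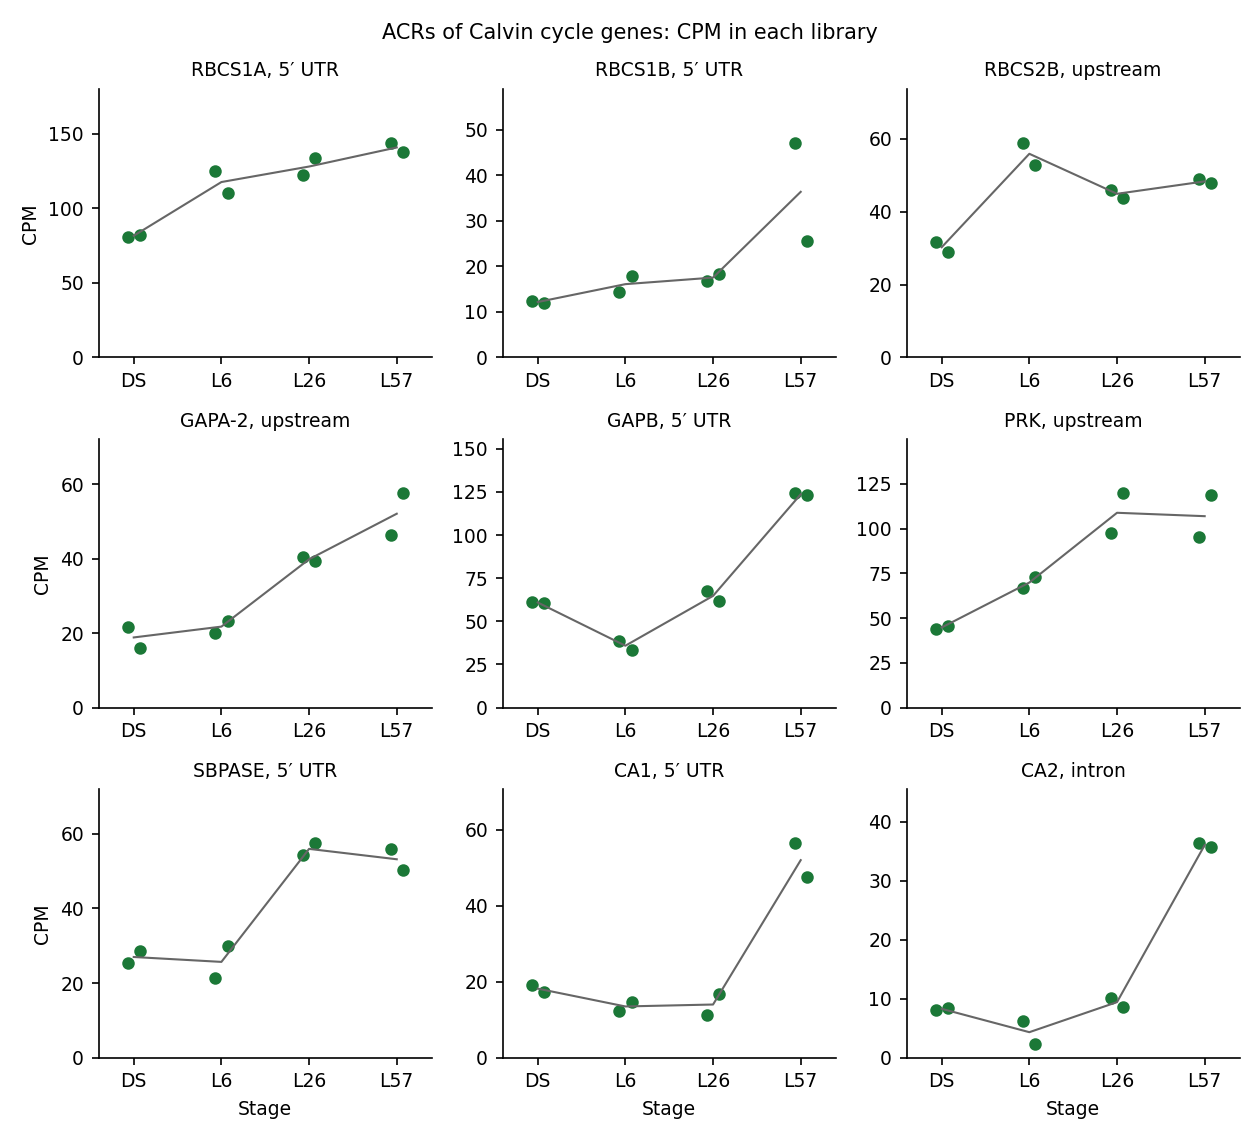
CPM (y axis) in each library by stage (x axis) for 9 Calvin cycle ACRs, with points for libraries and lines through the stage means. RBCS2B and RBCS1A are higher by L6, GAPA-2 and SBPASE by L26, and CA1 and CA2 in L57, where CA2 has 36.4 and 35.7 CPM.

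Chloroplast GAPDH, the enzyme of the reducing step, is built out of A and B subunits. GAPA-2 (AT1G12900, chr 1, 4394217 to 4394937, upstream) had 21.7 and 16.0 CPM in DS, 20.2 and 23.4 CPM in L6, 40.3 and 39.3 CPM in L26 and 46.5 and 57.7 CPM in L57. GAPA-1 (AT3G26650, chr 3, 9794479 to 9795286, 5′ UTR, also under the 3′ UTR of the neighbour LWD2) had 33.5 and 36.4 CPM in DS, 33.9 and 33.7 CPM in L6, 58.6 and 50.2 CPM in L26 and 76.3 and 67.0 CPM in L57. For both A subunit genes L6 overlapped with DS, and L26 and L57 lay above. The rises in L26 were 0.87 ± 0.22 for GAPA-2 and 0.68 ± 0.19 for GAPA-1, and those of L57 over DS 1.48 ± 0.22 and 1.03 ± 0.18. The L26 rise of GAPA-1 was not called by DESeq2 (0.59) or without L26 replicate 1 (0.57). An ACR further upstream of GAPA-1, over a coding exon of LWD2, rose in L57 over L26 by 0.69 ± 0.21, which was not called in 5 of 15 alternative fits (all between 0.54 and 0.77). The second ACR of GAPA-2, in an intron, was not called.

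GAPB, the B subunit gene (AT1G42970, chr 1, 16126838 to 16128617, 5′ UTR), changed at every step. It had 61.1 and 60.7 CPM in DS, 38.5 and 33.3 CPM in L6, 67.9 and 61.6 CPM in L26 and 124 and 123 CPM in L57. The L6 libraries were the lowest and the L57 libraries the highest, with no overlap with other stages. The ACR fell in L6 by 0.77 ± 0.16, rose in L26 by 0.85 ± 0.17 and rose again in L57 by 0.94 ± 0.16 (edgeR adjusted p = 3.85e-05, 4.73e-05 and 2.28e-06), and these calls held in every alternative run. Both other ACRs of GAPB had their lowest mean in L6. The upstream one, over an intron of AT1G42960, rose in L26 by 0.81 ± 0.26. This rise was not called by DESeq2 (0.88), without L6 replicate 1 (0.62) or without L26 replicate 2 (0.70). The one in a coding exon was higher in L57 than in DS by 0.52 ± 0.21, which was not called in 5 of 15 alternative fits (all between 0.34 and 0.71).

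PRK encodes phosphoribulokinase, which makes the acceptor of carbon dioxide. The ACR over its printed G-box (AT1G32060, chr 1, 11531496 to 11532545) had 44.0 and 45.5 CPM in DS, 66.9 and 72.8 CPM in L6, 97.8 and 119.9 CPM in L26 and 95.2 and 119 CPM in L57. L6 lay above DS and L26 above L6, while L26 and L57 overlapped. The rises were 0.64 ± 0.15 in L6 and 0.65 ± 0.14 in L26, and 1.27 ± 0.16 between L57 and DS (edgeR adjusted p = 3.06e-12). The first was not called with GC-corrected offsets (0.28), and the second not by DESeq2 (0.41) or without L26 replicate 2 (0.48). Of the genes for CP12, the small protein that binds GAPDH and phosphoribulokinase, CP12-2 rose by 0.97 ± 0.24 between L57 and DS and by 0.75 ± 0.26 between L57 and L26. The first rise was not called without L57 replicate 2 (0.45), and the second not with GC-corrected offsets (0.63), by DESeq2 (0.75), without L26 replicate 2 (0.52) or without L57 replicate 2 (0.22). Neither ACR of CP12-1 was called in any comparison, but the downstream one was lower in L57 than in DS with TMM factors (-0.38).

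Among the genes that rebuild the acceptor, those of aldolase, sedoheptulose bisphosphatase and fructose bisphosphatase had different courses. FBA2, a chloroplast aldolase gene, had 4 ACRs. The strongest, upstream of the start (AT4G38970, chr 4, 18166381 to 18167401) and under the 3′ UTR of AT4G38980, had 31.1 and 24.4 CPM in DS, 33.4 and 40.2 CPM in L6, 49.3 and 54.0 CPM in L26 and 60.8 and 81.6 CPM in L57. That in the 5′ UTR (chr 4, 18165623 to 18166059) had 8.16 and 8.35 CPM in DS, 16.2 and 14.2 CPM in L6, 20.7 and 21.0 CPM in L26 and 25.6 and 24.8 CPM in L57. DS was lowest in both, and the rises of L57 over DS were 1.38 ± 0.19 and 1.60 ± 0.30. The L6 rise in the 5′ UTR of FBA2 (0.87 ± 0.31) was not called with total counts (0.70), with GC-corrected offsets (0.57), by DESeq2 (0.79), without DS replicate 1 (0.83), without DS replicate 2 (0.87), without L6 replicate 1 (0.79) or without L6 replicate 2 (0.97). One of the 2 coding exon ACRs of FBA2 was higher in L57 than in DS by 0.99 ± 0.23, with a rise in L26 of 0.85 ± 0.23 that was not called without L6 replicate 2 (0.74) or without L26 replicate 1 (0.63), and the other was not called. At the paralog FBA1, the ACR had 109.8 and 102 CPM in L57 and 93.0 and 106 CPM in DS and was not called.

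SBPASE (AT3G55800, chr 3, 20709110 to 20709829, 5′ UTR), whose enzyme belongs to the Calvin cycle alone, had 25.4 and 28.6 CPM in DS, 21.5 and 29.9 CPM in L6, 54.4 and 57.5 CPM in L26 and 56.0 and 50.3 CPM in L57. DS and L6 formed a low level and L26 and L57 a high one, and the rise of 1.12 ± 0.20 fell on the L26 step (edgeR adjusted p = 3.41e-06). HCEF1, the chloroplast fructose bisphosphatase gene (AT3G54050, chr 3, 20016394 to 20018570), had 88.3 and 99.5 CPM in DS, 64.7 and 62.6 CPM in L6, 98.8 and 80.3 CPM in L26 and 118 and 117 CPM in L57. Its ACR was lowest in L6, where it fell by 0.56 ± 0.13, and it rose in L26 by 0.49 ± 0.14. The fall was not called by DESeq2 (-0.38), and the rise not with TMM factors (0.24), with total counts (0.33), by DESeq2 (0.23), without L6 replicate 2 (0.46) or without L26 replicate 1 (0.34). The change of 0.32 ± 0.14 between L57 and DS was not called, but it was with GC-corrected offsets (0.36) or without L26 replicate 2 (0.34).

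Transketolase, the isomerases and the epimerase complete this group. TKL1, for transketolase, had an upstream ACR with 117 and 96.5 CPM in L57 and 93.4 and 108 CPM in DS, which was not called. Its summit lies under the 5′ UTR of the neighbour TTN1, 46 bp from the start of that gene. An ACR beyond the end of TKL1, with the nearest start, that of AT3G60760, 1280 bp away, rose in L6 by 0.69 ± 0.13. It was higher in L57 than in DS by 0.75 ± 0.15, which was not called by DESeq2 (0.44). The leading ACR of TIM (triose phosphate isomerase) has its summit 1213 bp from the start of TIM and 495 bp from that of AT2G21172, the nearest. It was higher in L57 than in DS by 0.55 ± 0.15. This was not called with TMM factors (0.28), by DESeq2 (0.31), without DS replicate 2 (0.43) or without L57 replicate 1 (0.46). An ACR beyond the end of TIM rose in L26 by 0.77 ± 0.27, which was not called by DESeq2 (0.85), without L6 replicate 2 (0.53), without L26 replicate 2 (0.54) or with the earlier form of the edgeR test (0.76), and one upstream was not called but was lower in L57 than in DS with GC-corrected offsets (-0.48) or without DS replicate 2 (-0.64). At RPE (ribulose phosphate epimerase), the leading ACR lies upstream, over a coding exon of AT5G61412. It was higher in L57 than in DS by 0.87 ± 0.25, which was not called without L57 replicate 2 (0.67). The leading ACR of the ribose phosphate isomerase gene EMB3119 (AT3G04790) was not called (-0.21 ± 0.20).

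Carbonic anhydrase converts carbon dioxide and bicarbonate into each other and is not among the cycle reactions named above. Its genes were counted with the Calvin cycle, and they held the largest rises between L26 and L57. In the 5′ UTR of CA1 (AT3G01500, chr 3, 197889 to 198563, also under the 3′ UTR of AT3G01510), levels were 19.2 and 17.2 CPM in DS, 12.3 and 14.8 CPM in L6, 11.4 and 16.7 CPM in L26 and 56.5 and 47.5 CPM in L57. In an intron of CA2 (AT5G14740, chr 5, 4758149 to 4758586) they were 8.08 and 8.53 CPM in DS, 6.30 and 2.39 CPM in L6, 10.2 and 8.70 CPM in L26 and 36.4 and 35.7 CPM in L57. In both, the seedling stood apart from the other 3 stages. The rises of L57 over L26 were 1.85 ± 0.26 at CA1 and 1.94 ± 0.29 at CA2 (edgeR adjusted p = 1.33e-08 and 1.37e-07), and that of CA2 over DS, 2.11 ± 0.27, was the largest change among the members.

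Other ACRs of these genes had other courses. The strongest of CA2, in an intron near its end (chr 5, 4761057 to 4761846), had 24.0 and 26.7 CPM in DS, 32.3 and 29.2 CPM in L6, 48.3 and 53.8 CPM in L26 and 49.8 and 37.5 CPM in L57. Its rise in L26 of 0.74 ± 0.20 was not called without L6 replicate 2 (0.66) or without L26 replicate 2 (0.65), and that of 0.77 ± 0.22 between L57 and DS not without L57 replicate 1 (0.56). A neighbour downstream (chr 5, 4762684 to 4763318) had 13.9 and 14.5 CPM in DS, 15.3 and 16.0 CPM in L6, 34.5 and 33.4 CPM in L26 and 37.2 and 36.2 CPM in L57, with L26 and L57 above the rest and a rise in L26 of 1.11 ± 0.25. The nearest start, that of MYB66, is 1979 bp from its summit. The strongest ACR assigned to CA1 lies downstream (chr 3, 193864 to 194709), nearest to the start of AT3G01490, with 64.7 and 68.0 CPM in DS, 62.2 and 59.0 CPM in L6, 62.4 and 57.09 CPM in L26 and 62.4 and 44.3 CPM in L57. It was not called in any comparison, but was lower in L57 than in DS with TMM factors (-0.47) or with GC-corrected offsets (-0.48).

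Chlorophyll synthesis starts with glutamyl-tRNA reductase, encoded by HEMA1 and known as a controlling step of the pathway. The ACR at the start of HEMA1 (AT1G58290, chr 1, 21625840 to 21626525, 5′ UTR) had 14.5 and 14.8 CPM in DS, 39.8 and 31.8 CPM in L6, 23.7 and 20.9 CPM in L26 and 28.3 and 25.6 CPM in L57. The L6 libraries were the highest and the DS libraries the lowest. It rose in L6 by 1.29 ± 0.23 (edgeR adjusted p = 1.63e-06), the largest rise at that step among the members, and fell in L26 by 0.69 ± 0.23. The fall was not called with total counts (-0.53), by DESeq2 (-0.64), without L6 replicate 1 (-0.54), without L26 replicate 1 (-0.77) or without L26 replicate 2 (-0.58), and the rise of 0.87 ± 0.27 between L57 and DS not without L57 replicate 1 (0.81).

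A stronger ACR within the coding part of HEMA1 (chr 1, 21623782 to 21625190) followed another course, with 53.8 and 48.3 CPM in DS, 40.5 and 47.8 CPM in L6, 40.8 and 48.2 CPM in L26 and 79.4 and 90.3 CPM in L57. Here the seedling stood apart, with a rise over L26 of 0.93 ± 0.18 (edgeR adjusted p = 6.94e-05). GSA2, for the aminotransferase that makes 5-aminolevulinate, had a coding exon ACR with 70.3 and 58.0 CPM in L57 and 32.8 and 31.2 CPM in L26, a rise of 1.00 ± 0.21. Its strongest ACR, upstream (AT3G48730, chr 3, 18048461 to 18049356) and over a coding exon of AT3G48720, had 116 and 112 CPM in DS, 95.4 and 92.8 CPM in L6, 93.5 and 86.2 CPM in L26 and 83.1 and 89.3 CPM in L57. It was lower in L57 than in DS (-0.40 ± 0.14), which was not called with GC-corrected offsets (-0.31), without L57 replicate 1 (-0.32) or without L57 replicate 2 (-0.42).

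At HEMB1, for 5-aminolevulinate dehydratase, the single ACR lies beyond the end of the gene (AT1G69740, chr 1, 26235076 to 26235411), under the 5′ UTR of AT1G69750. It had 11.3 and 10.9 CPM in DS, 13.4 and 15.4 CPM in L6, 11.2 and 11.0 CPM in L26 and 21.6 and 18.1 CPM in L57. The seedling libraries were the highest, and the rise of 0.83 ± 0.29 between L57 and DS was not called with GC-corrected offsets (0.70), by DESeq2 (0.92), without DS replicate 1 (0.86), without DS replicate 2 (0.81), without L57 replicate 1 (0.71) or without L57 replicate 2 (0.96). The ACR of GSA1 was not called.

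Magnesium chelatase, made of the subunits H, D and I and stimulated by GUN4, commits protoporphyrin to chlorophyll. The largest chlorophyll synthesis change was in the 5′ UTR of CHLH, annotated as GUN5 (AT5G13630, chr 5, 4392034 to 4392593), with 25.8 and 19.5 CPM in DS, 31.7 and 30.3 CPM in L6, 53.0 and 63.6 CPM in L26 and 75.9 and 65.3 CPM in L57. The libraries of successive stages did not overlap. The L26 step was 0.92 ± 0.19, and the rise of L57 over DS was 1.63 ± 0.20 (edgeR adjusted p = 6.75e-05 and 2.37e-12), and both calls held in every alternative run. A coding exon ACR of CHLH (chr 5, 4388925 to 4389891) had 36.4 and 53.5 CPM in DS, 33.8 and 18.9 CPM in L6, 27.7 and 38.1 CPM in L26 and 50.0 and 51.1 CPM in L57. Its mean was lowest in L6, with a fall of 0.78 ± 0.20, and this fall was not called by DESeq2 (-0.68), without DS replicate 2 (-0.48) or without L6 replicate 2 (-0.41). A stronger ACR upstream (chr 5, 4392922 to 4393546) under the 5′ UTR of the neighbour PDAT had 93.3 and 79.4 CPM in DS, 80.9 and 76.3 CPM in L6, 80.2 and 81.2 CPM in L26 and 61.5 and 90.1 CPM in L57. It was called in no comparison, but was lower in L57 than in DS with TMM factors (-0.42).

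No ACR of the other subunit genes was called in L57 versus DS. That of CHLI1, at the start, had 24.5 and 18.9 CPM in L57 and 21.4 and 19.9 CPM in DS. That of CHLI2, in a coding exon, had 16.5 and 13.6 CPM in L57 and 16.3 and 19.4 CPM in DS. Of the 3 ACRs of CHLD, the upstream one was lower in L6 than in DS (-0.53 ± 0.21), which was not called in 6 of 15 alternative fits (all between -0.67 and -0.40). The downstream one, at the start of AT1G08530, was higher in L57 than in DS with total counts (0.59).

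GUN4 had 3 ACRs with different courses. In its 5′ UTR (AT3G59400, chr 3, 21949533 to 21949912), which is also annotated as 5′ UTR of the neighbour GCN2, levels were 16.4 and 14.2 CPM in DS, 24.0 and 35.1 CPM in L6, 24.2 and 22.8 CPM in L26 and 23.9 and 23.4 CPM in L57. Here the rise fell on the L6 step, with 0.96 ± 0.24 (edgeR adjusted p = 0.00073), and it was not called without L6 replicate 2 (0.69). Between L57 and DS this ACR was not called, but it was higher with TMM factors (0.70) or with total counts (0.80). A second ACR in the promoter, also under the 5′ UTR of GCN2 (chr 3, 21949977 to 21950397), had 32.1 and 32.2 CPM in DS, 37.0 and 41.7 CPM in L6, 31.4 and 21.8 CPM in L26 and 31.1 and 32.9 CPM in L57. Its mean was highest in L6 and lowest in L26, a fall of 0.59 ± 0.22 that was not called in 10 of 15 alternative fits (all between -0.85 and -0.31). Downstream of GUN4 (chr 3, 21948021 to 21948666), levels were 25.4 and 27.3 CPM in DS, 18.8 and 17.7 CPM in L6, 50.6 and 34.6 CPM in L26 and 57.08 and 66.0 CPM in L57, lowest in L6 and highest in L57. The summit of this ACR lies 474 bp from the start of GCN2, the nearest, and 1419 bp from that of GUN4. It rose in L26 by 1.20 ± 0.23 and was higher in L57 than in DS by 1.23 ± 0.20. Its rise in L57 over L26 (0.56 ± 0.20) was not called with TMM factors (0.51), with GC-corrected offsets (0.53), by DESeq2 (0.51), without L26 replicate 2 (0.28), without L57 replicate 1 (0.66), without L57 replicate 2 (0.44) or with the earlier form of the edgeR test (0.55).

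**Figure D4:**
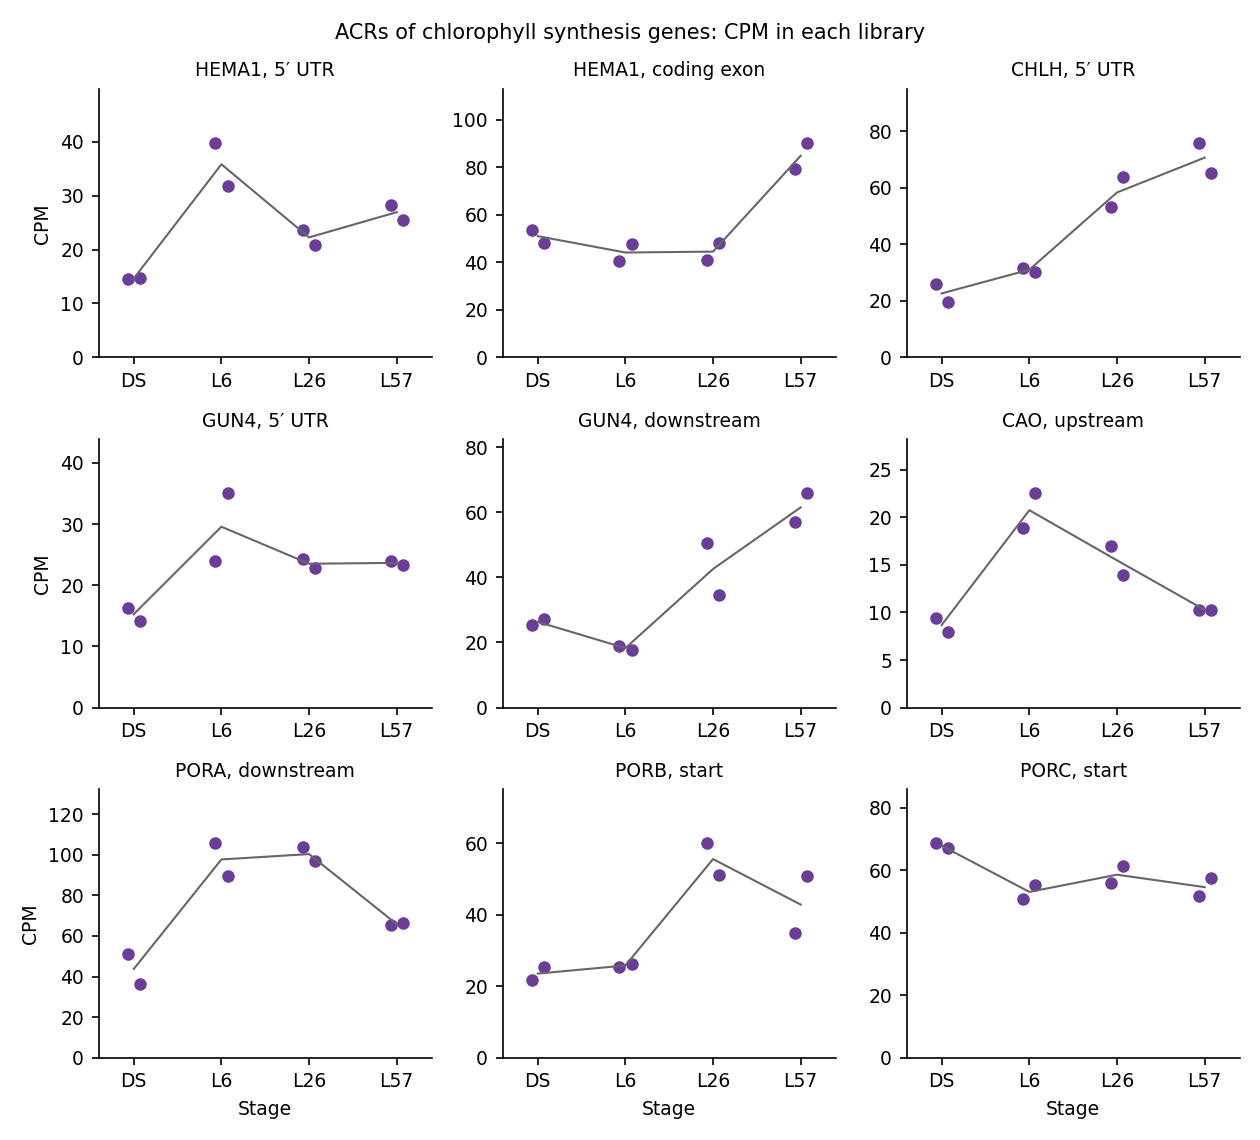
CPM (y axis) in each library by stage (x axis) for 9 chlorophyll synthesis ACRs, with points for libraries and lines through the stage means. The means at the starts of HEMA1, GUN4 and CAO are highest in L6, CHLH reaches 75.9 and 65.3 CPM in L57, and PORA, PORB and PORC each have a course of their own.

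The next step, methylation, is encoded by CHLM, whose ACR was not called in any comparison. The POR enzymes then need light to reduce protochlorophyllide, and PORA is known for the etiolated seedling and PORC for the green leaf. PORB (AT4G27440, chr 4, 13725052 to 13725657, at the start) had 21.7 and 25.4 CPM in DS, 25.4 and 26.15 CPM in L6, 60.0 and 51.1 CPM in L26 and 34.7 and 50.9 CPM in L57. It was highest in L26, with a rise over L6 of 1.10 ± 0.20 (edgeR adjusted p = 7.55e-06). The change of 0.88 ± 0.22 between L57 and DS was not called without L57 replicate 2 (0.56).

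PORC, annotated as POR C (AT1G03630, chr 1, 907290 to 907789, at the start), had 68.7 and 67.0 CPM in DS, 50.8 and 55.4 CPM in L6, 55.8 and 61.3 CPM in L26 and 51.8 and 57.4 CPM in L57. It was called in no comparison, with -0.31 ± 0.17 between L57 and DS, but was lower with TMM factors (-0.43). No ACR had its summit at the start of PORA. The strongest assigned to PORA lies beyond its end (AT5G54190, chr 5, 21990226 to 21990876), over the annotated non-coding RNA gene AT5G08155, and 11.0% of its 50-base stretches have another exact copy in the genome. It had 50.9 and 36.6 CPM in DS, 106 and 89.6 CPM in L6, 104 and 97.0 CPM in L26 and 65.2 and 66.3 CPM in L57. L6 and L26 were the highest, and the ACR rose in L6 by 1.16 ± 0.14 and fell in L57 by 0.61 ± 0.17 (edgeR adjusted p = 1.82e-12 and 0.00599). The fall was not called without L57 replicate 1 (-0.58) or without L57 replicate 2 (-0.60), and the change of 0.59 ± 0.18 between L57 and DS not with TMM factors (0.35), by DESeq2 (0.37), without DS replicate 2 (0.37) or without L57 replicate 2 (0.61). In a coding exon of PORA, a weak ACR rose in L57 over L26 by 0.94 ± 0.33, which was not called in 6 of 15 alternative fits (all between 0.85 and 1.08), and it was higher in L57 than in DS with TMM factors (0.74), with total counts (0.84) or with GC-corrected offsets (0.87).

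Chlorophyll b is made by chlorophyllide a oxygenase, the product of CAO, annotated as CH1. The ACR over its printed G-boxes (AT1G44446, chr 1, 16851193 to 16851513) had 9.40 and 7.97 CPM in DS, 18.9 and 22.6 CPM in L6, 16.99 and 14.0 CPM in L26 and 10.2 and 10.3 CPM in L57. It was highest in L6, with a rise of 1.26 ± 0.28 (edgeR adjusted p = 0.000122), and L57 was not called against DS (0.24 ± 0.37). A stronger ACR in a coding exon (chr 1, 16849666 to 16850655) had 54.5 and 38.6 CPM in DS, 32.6 and 26.0 CPM in L6, 26.24 and 28.7 CPM in L26 and 33.9 and 39.3 CPM in L57. It fell in L6 by 0.67 ± 0.19, which was not called by DESeq2 (-0.59), without DS replicate 1 (-0.40) or without L6 replicate 2 (-0.50). CHLG, for chlorophyll synthase, had an ACR over the printed site II elements and telo-box with 37.7 and 38.6 CPM in L57 and 48.4 and 52.8 CPM in DS, which was not called. A second ACR of CHLG, near the start of SAC8, had 22.7 and 24.3 CPM in L57 and 38.7 and 35.5 CPM in DS. It was lower in L57 (-0.65 ± 0.24), which was not called with total counts (-0.53), by DESeq2 (-0.61), without DS replicate 1 (-0.60), without L57 replicate 1 (-0.60) or without L57 replicate 2 (-0.69).

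Of the ACRs called higher in L6, 3 of 4 in chlorophyll synthesis (the starts of HEMA1, GUN4 and CAO) and 2 of 6 in the Calvin cycle (those of RBCS2B and PRK) had their summit within 400 bp upstream to 100 bp downstream of the start of the gene. Called or not, 10 of the 30 chlorophyll synthesis ACRs and 9 of the 41 Calvin cycle ACRs had their summit there. Of all 30223 ACRs, called or not, 9680 had their summit in such a window of any annotated start, which is a wider rule. The L6 calls over all ACRs were not split by position. The L6 calls made up 13.3% and 14.6% of the ACRs of the 2 pathways, against 17.6% of all ACRs. In L57 versus DS, 5 of 9 Calvin cycle ACRs in this promoter window, 12 of 19 in gene bodies beyond it, 3 of 7 further upstream and 3 of 6 downstream were called higher. For chlorophyll synthesis, 3 of 10 in the window, 2 of 8 in gene bodies and 3 of 7 downstream were called higher, and the 2 lower calls were among the 5 further upstream. Over all ACRs, 17.0% were called higher and 12.2% lower, and these were not split by position. The start of the assigned gene was the nearest annotated start for 29 Calvin cycle ACRs, of which 18 were called higher, and for 18 chlorophyll synthesis ACRs, of which 5 were. For the other 12 ACRs in each pathway, which lay closer to the start of another gene, 5 and 3 were called higher, and whether these serve the member gene or its neighbour was not tested. By motif, 7 of 11 Calvin cycle ACRs with a G-box and 16 of 30 without were called higher in L57 than in DS, as were 8 of 15 with an I-box and 15 of 26 without. For site II, 4 of 11 Calvin cycle ACRs with it and 19 of 30 without were called higher. All 8 chlorophyll synthesis ACRs called higher were among the 20 without an I-box. In the same pathway, 1 of 6 with a G-box and 7 of 24 without were called higher, as were 1 of 8 with site II and 7 of 22 without. The calls over all ACRs were not split by motif. These splits were not tested.

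Other genes listed with the pathways were read by the same windows. Further genes listed with the Calvin cycle had 23 ACRs, at 14 of 15 genes. In L57 versus DS, 7 of them (30.4%) were called higher and 1 lower, with a median of 0.11. Further tetrapyrrole genes had 26 ACRs, at 16 of 21 genes, with 7 (26.9%) called higher, 19 not called and a median of 0.19. Over all ACRs, 17.0% were called higher and 12.2% lower. The first list holds isomerase, carbonic anhydrase and chaperone genes, and whether their products act in the chloroplast cycle was not examined. At RSW10, a ribose phosphate isomerase gene, an upstream ACR had the largest change of these lists, 2.61 ± 0.22 in L6 versus DS. The ACR upstream of AT5G44520, another gene of this enzyme, rose by 1.21 ± 0.26 between L57 and DS, and one in an intron of the carbonic anhydrase gene CA4 by 1.29 ± 0.24. At RBCX1, for a Rubisco assembly chaperone, an ACR in the 3′ UTR rose in L57 over L26 by 1.15 ± 0.22.

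In the tetrapyrrole genes, the largest rise between L57 and DS was at PPOX2, for protoporphyrinogen oxidase, in an ACR beyond its end, under the 5′ UTR of AT5G14210, with 12.4 and 10.7 CPM in DS, 32.0 and 32.6 CPM in L6, 49.7 and 51.3 CPM in L26 and 40.6 and 50.7 CPM in L57. DS was the lowest there, with rises in L6 and L26 and 1.99 ± 0.25 between L57 and DS, and an ACR in the 3′ UTR, also nearest to the start of AT5G14210, rose by 1.70 ± 0.28. The L26 rise was not called by DESeq2 (0.63), without L6 replicate 1 (0.62), without L6 replicate 2 (0.65) or without L26 replicate 2 (0.62). An ACR downstream of ERS, for glutamyl-tRNA synthetase, rose by 1.77 ± 0.30 and lies near the start of the photosystem gene PSAN, and one downstream of HEME1, for uroporphyrinogen decarboxylase, by 1.58 ± 0.30, with the nearest start, that of PPC3, 1608 bp away.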

How the data were processed

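ATAC-seq of 8 libraries (2 each of DS, L6, L26 and L57) was taken as deposited, in a table of raw counts per ACR that the authors made on TAIR10, and in a deposited table of CPM that the authors scaled with offsets that follow abundance (csaw). The submitters' processing notes list R 4.3.1, MACS3 3.0.0b3, Genrich 0.6.1, bedtools 2.30.0, SAMtools 1.14, Bowtie2 2.4.4 and fastp 0.23.4. By the methods, duplicate, organellar, blacklisted and poorly mapped reads were removed and peaks found in both replicates were merged over stages, so a region shared by near-identical genes may be undercounted. Of the columns of sample values, 0 were left out.

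Counts were tested with edgeR 4.0.16 in R 4.3.3 (quasi-likelihood F test, 1 model of 4 stages, trended offsets refitted with limma 3.58.1 at a span of 0.3, no filter, no block) with Benjamini-Hochberg adjustment over all 30223 ACRs. The refitted offsets differed by at most 1.91e-12 on the log scale from those implied by the deposited CPM. The biological coefficient of variation was 9.73%, with 4 residual degrees of freedom and 190.8 prior ones at the median, so the spread was mostly shared over ACRs. The SE is the absolute log2 fold change over the root of its F value. The fit was also run on simulated counts, with the same spread for every ACR and no differences between libraries that depend on abundance. That run therefore cannot show how well the calls hold in these data.

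Genes, features and sequences came from RefSeq's TAIR10.1, whose chromosome lengths were compared with the ACR coordinates first. Its gene start is the most upstream annotated one and may differ from that of the authors' gene models.

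Members and lists were chosen with earlier results of these data known. ACRs named with values in every library were the strongest ACR of the 8 genes per pathway with the smallest p over all stages, those of the RBCS, GAPA, GAPB, PRK, RCA, CA, HEMA1, CHLH, GUN4 and POR genes, and others called with a change of at least 2-fold. All other member ACRs given with values were added after their values were seen, and the alternatives were then run for these as well. Genes of the other lists were named where called with a change of at least 2-fold. Alternatives were TMM factors, total counts, GC-corrected offsets, DESeq2 1.42.0, a count filter, a replicate block, leaving out each library and, chosen after seeing the data, the earlier form of the edgeR test.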

Additional observations from a re-analysis of the deposited data

How the results depend on the processing

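For the 71 member ACRs, 39 of 83 calls held in every alternative, 44 were lost in at least 1, and none of the 83 turned direction. Calls lost are given beside the values above, and their causes were not tested. Depth limits L57 most, with the fewest counts.

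Counts of calls moved beyond 1.5 times as follows. In L6 versus DS, the 2 lower Calvin cycle calls became 4 with TMM factors, total counts or GC-corrected offsets and 1 by DESeq2, and the 3 lower chlorophyll synthesis calls became 0 by DESeq2. In L26 versus L6, the 14 higher Calvin cycle calls became 8 by DESeq2, and the 2 lower ones 1 with total counts, GC-corrected offsets, DESeq2 or the earlier form of the edgeR test. The 2 lower chlorophyll synthesis calls became 0 with total counts or DESeq2 and 1 with the earlier form. In L57 versus L26, the 9 higher Calvin cycle calls became 5 by DESeq2 and the 0 lower ones 1 with TMM factors or total counts, and the 4 higher chlorophyll synthesis calls became 7 with total counts and 2 by DESeq2. In L57 versus DS, the 0 lower Calvin cycle calls became 2 with TMM factors or GC-corrected offsets, and the 2 lower chlorophyll synthesis calls became 4 with TMM factors and 1 with total counts, GC-corrected offsets or DESeq2. The count filter changed no count.

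Over all ACRs, total counts moved the median of L26 versus L6 to 0.099, against -0.01, and the share of calls that were higher to 62.6%, against 52.4%, and to 44.7%, against 55.1%, in L6 versus DS. By DESeq2 that share was 71.1%, against 55.1%, in L6 versus DS, 38.6%, against 52.4%, in L26 versus L6, and 41.5%, against 54.9%, in L57 versus L26, where TMM factors gave 45.1%.

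Leaving out 1 library at a time gave, for the Calvin cycle, 4 to 6 higher and 2 to 3 lower calls in L6 versus DS, 9 to 15 and 0 to 2 in L26 versus L6, 5 to 9 and 0 in L57 versus L26, and 19 to 24 and 0 to 1 in L57 versus DS. For chlorophyll synthesis it gave 3 to 4 and 0 to 5, 3 and 0 to 1, 2 to 5 and 0 to 2, and 5 to 8 and 0 to 2 in the same comparisons.

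No effect shared by same-numbered libraries was seen, as their deviations correlated between -0.0405 and 0.0231 across ACRs. Whether replicate numbers mark paired material is not stated in the labels, and these values cannot decide it. With a replicate block, the higher Calvin cycle calls were 6, 14, 9 and 22 and the lower ones 2, 1, 0 and 0 over the 4 comparisons, and the chlorophyll synthesis calls were 4, 3, 4 and 8 higher and 3, 2, 1 and 2 lower.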
